A study of Homo sapiens with 33 samples.

Results

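The genes described here make up the MHC class I presentation pathway: the heavy chains HLA-B, HLA-C and HLA-E, their light chain B2M, the peptide transporter subunits TAP1 and TAP2, the peptide editor TAPBP, and the immunoproteasome subunits PSMB8 and PSMB9. They were taken by symbol, all 9 of 9 found among the 56470 gene symbols of a count table from bulk RNA sequencing of the head and neck squamous cell carcinoma (HNSCC) lines SCC1, SCC6 and SCC25. With cetuximab, an antibody that blocks EGFR, 7 of the 9 rose in SCC1, by 1.23-fold to 1.48-fold, where 22.7% of all genes tested rose. In SCC6, HLA-B, TAP1 and TAPBP rose by 1.77-fold to 2.07-fold while TAP2 fell, and in SCC25 B2M rose and TAP2 fell. Of all genes tested, 15.6% rose and 14.6% fell in SCC6, and 8.8% rose and 9.5% fell in SCC25. SCC6 had the lowest untreated level of every one of the 9 genes. The SCC1 and SCC25 calls were lost with sequencing flow cell as a covariate, as described with each result. Treatment and flow cell largely coincided in those lines, so an effect of either cannot be told apart from the other.

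In this pathway the proteasome cuts cytosolic proteins into peptides, TAP1 and TAP2 together carry the peptides into the endoplasmic reticulum, and TAPBP (tapasin) holds empty class I molecules at the transporter until a peptide is bound. A class I molecule is a heavy chain paired with beta-2 microglobulin, the product of B2M, and it shows the peptide to CD8 T cells. HLA-E instead mostly presents leader peptides of other class I chains to receptors on natural killer cells. PSMB8 and PSMB9 replace the constitutive subunits PSMB5 and PSMB6 in the immunoproteasome, and interferon-gamma is the best known inducer of the whole set. Squamous carcinomas often lose class I expression, which makes these transcripts a common measurement in tumour cells.

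Cells of each line were given PBS (the untreated control) or 100 nM cetuximab starting the day after seeding, with medium renewed daily, and RNA was sequenced from PBS cultures of days 0 to 5 and cetuximab cultures of days 1 to 5. This gave 33 libraries, each a single line, treatment and day, so libraries of different days stand in for replicates. For SCC6 with cetuximab the labels name day 2 on a pair of libraries and day 1 on none; these are named 2a and 2b after their order in the count table. The sources differ on the medium: the labels give SCC25 and SCC1 DMEM with serum and hydrocortisone and SCC6 high-glucose DMEM with non-essential amino acids, whereas the study's methods give all lines the same DMEM and F12 mixture with serum. Where the labels hold, line and medium cannot be told apart. Each line is a tumour cell culture, and its labels name no immune cells. Nothing states that libraries came from separate cultures, so p-values measure the spread between these libraries only.

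Total counts per library ran from 28508758 to 80727478, and the deepest were the SCC6 cetuximab libraries of days 4 and 5. The drug check was ERK output, 10 genes transcribed downstream of EGFR signalling, of which 9 fell in SCC1, 9 in SCC6 and 10 in SCC25. Of all genes tested, 22.1%, 14.6% and 9.5% fell in these lines. The list was chosen with earlier results of these data known, so it is not an independent check. The leukocyte marker PTPRC (CD45) never exceeded 0.302 CPM, CD2 had no count in any library, and 6 to 8 of the 9 leukocyte markers stayed under 1 CPM in each group, CD68 being the main exception. CDH1 and EPCAM, epithelial adhesion genes, were present in every library, whereas the basal keratin KRT5 lay between 1.78 and 14.6 CPM in SCC6, far below the other lines. The summed level of 6 fibroblast markers was higher with cetuximab, at 49.9 to 145.8 against 20.8 to 32.7 CPM with PBS in SCC1, 9.02 to 115.2 against 2.90 to 6.64 in SCC6 and 251.5 to 404.9 against 143.8 to 194.6 in SCC25. The summed level of 8 epithelial markers was 6989 to 11847 CPM with cetuximab against 2226 to 3468 with PBS in SCC1 (6 called higher, 2 lower), 2302 to 3446 against 1713 to 4161 in SCC6 (3 higher, 2 lower) and 14578 to 18008 against 12233 to 18471 in SCC25 (2 higher). The leukocyte sum was 8.70 to 17.2 against 19.1 to 54.4 CPM in SCC1, 4.49 to 7.53 against 17.2 to 32.7 in SCC6 and 146.3 to 175.9 against 166.3 to 233.3 in SCC25. Most of it was CD68, a lysosomal protein gene used as a macrophage marker. CD68 fell in all 3 lines by edgeR (-2.15, -1.89 and -0.31 on the log2 scale). Of the other leukocyte markers tested, ITGAX fell in SCC1 (-1.11) and was not called in SCC25 (-0.01). CD14 went the other way in SCC1 (0.43) and SCC25 (0.67) and was not called. The part of these marker levels in the class I results was not tested. In bulk libraries, fewer cells of a type and less RNA per cell cannot be told apart. Flow cell, read from the labels, was shared only in part. SCC1 PBS of days 0 to 4 and SCC1 cetuximab were on different flow cells and only PBS of day 5 shared one with the treated libraries, and in SCC25 only cetuximab of days 1 and 2 shared one with PBS. In SCC6, PBS of days 0 and 1 had a flow cell apart, PBS of days 2 to 5 and cetuximab 2a, 2b and day 3 shared another, and cetuximab of days 4 and 5 alone were on a further one.

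Of the members, 8 lie in the MHC region on chromosome 6 and B2M lies on chromosome 15. In GENCODE 44 placed on GRCh37, the class I heavy chain genes are at chr6:31321649-31334844 (HLA-B, minus strand), chr6:31236526-31239907 (HLA-C, minus strand) and chr6:30457286-30461971 (HLA-E, plus strand). The processing genes are at chr6:32789610-32806516 (TAP2, minus strand), chr6:32808494-32812456 (PSMB8, minus strand), chr6:32812986-32821593 (TAP1, minus strand), chr6:32811913-32827628 (PSMB9, plus strand) and chr6:33267471-33282061 (TAPBP, minus strand), and B2M is at chr15:45003556-45011049 on the plus strand. TAP1 and PSMB9 are transcribed away from each other, with 487 bases between their RefSeq starts. The annotated extents of TAP1, PSMB8, PSMB9 and PSMB8-AS1 overlap, and the strand setting used for counting is not given in the sources used here.

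Promoter sequence is shown for HLA-B, whose window holds the kappa-B letters searched for. It is also shown for the 4 members whose window holds the letters searched for the interferon-stimulated response element (ISRE). The choice was made since HLA-B, B2M, TAP1, TAP2 and TAPBP are also the genes that changed in SCC6 or SCC25. Each sequence is the 250 bases before the RefSeq start, 5′ to 3′ on the gene's own strand. The windows are credited to RefSeq (table on GRCh38.p14), and each was found by exact match on GRCh37, at chr6:31324957-31325206 (HLA-B, minus), chr15:45003465-45003714 (B2M, plus), chr6:32821482-32821731 (TAP1, minus), chr6:32806517-32806766 (TAP2, minus) and chr6:33281856-33282105 (TAPBP, minus). Capitals mark motif letters.
HLA-B: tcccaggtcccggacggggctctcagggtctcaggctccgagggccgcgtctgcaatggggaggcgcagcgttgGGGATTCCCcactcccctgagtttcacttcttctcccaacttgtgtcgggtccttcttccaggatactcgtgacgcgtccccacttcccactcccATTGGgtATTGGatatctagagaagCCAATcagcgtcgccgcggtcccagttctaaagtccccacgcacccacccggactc
B2M: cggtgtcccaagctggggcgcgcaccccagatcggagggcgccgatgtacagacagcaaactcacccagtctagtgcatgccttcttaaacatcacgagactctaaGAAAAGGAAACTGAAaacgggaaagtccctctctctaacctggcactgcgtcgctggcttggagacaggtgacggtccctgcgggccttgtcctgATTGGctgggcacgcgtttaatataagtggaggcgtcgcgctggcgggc
TAP1: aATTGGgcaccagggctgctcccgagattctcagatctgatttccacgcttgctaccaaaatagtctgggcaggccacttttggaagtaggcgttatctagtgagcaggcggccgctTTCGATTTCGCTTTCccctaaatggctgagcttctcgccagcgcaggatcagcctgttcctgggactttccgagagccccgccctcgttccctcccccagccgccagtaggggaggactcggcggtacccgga
TAP2: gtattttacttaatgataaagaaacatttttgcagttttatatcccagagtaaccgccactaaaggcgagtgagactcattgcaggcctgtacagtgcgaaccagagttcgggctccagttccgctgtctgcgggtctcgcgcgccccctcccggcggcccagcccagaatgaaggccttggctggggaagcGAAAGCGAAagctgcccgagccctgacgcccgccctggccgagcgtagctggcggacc
TAPBP: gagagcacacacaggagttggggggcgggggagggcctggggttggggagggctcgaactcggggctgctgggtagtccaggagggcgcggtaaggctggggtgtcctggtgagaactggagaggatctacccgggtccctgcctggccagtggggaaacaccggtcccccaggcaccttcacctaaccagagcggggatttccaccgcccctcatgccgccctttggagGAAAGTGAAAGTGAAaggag

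A window was matched for 8 of the 9 members, all but HLA-E. The motifs searched, on both strands, were GAAANNGAA for the ISRE, GGGATTCCC for kappa-B, TTCNNNGAA for the interferon-gamma activated site and CCAAT for the CCAAT box. The ISRE letters were in the windows of B2M, TAP1, TAP2 and TAPBP, against 7.06% of all 27305 promoter windows, and in B2M, TAP1 and TAPBP a pair of matches overlapped. The exact letters GGGATTCCC were only in the HLA-B window among the members, against 0.348% of all windows. Other kappa-B spellings were not searched. The CCAAT letters were in the windows of 5 members (HLA-B, HLA-C, B2M, TAP1 and PSMB9), against 33% of all, and the interferon-gamma activated site letters were in none of the members' windows, against 6.78% of all. A match is a description of the letters and not of binding. Each motif was searched only in the spelling given, so a window without a match can still hold another form of it. TAP2, which fell with cetuximab in SCC6 and SCC25, held 1 ISRE match. TAP1 and TAPBP, which rose in SCC6, held 2 overlapping ones each. B2M also held 2 overlapping matches, and its SCC6 log2 fold change was negative (-0.37, not called). HLA-B, which rose in SCC6 (0.83), held no match to the ISRE letters searched. Whether these motifs have a part in the changes was not tested.

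The first comparison set the untreated levels of the lines side by side, over PBS of days 0 to 5 (n = 6 libraries per line). SCC25 PBS shared no flow cell with PBS of the other lines. SCC1 PBS of day 5 and SCC6 PBS of days 0 and 1 shared one, and no other PBS libraries of those lines did. Line and flow cell can therefore largely not be told apart in this comparison. SCC6 was below SCC25 for all 9 members, most of all for PSMB9 (52.6-fold lower), HLA-B (29.8-fold lower) and HLA-C (20.3-fold lower), and least for TAP2 (1.18-fold lower). The PSMB9 value rests on 3 to 42 counts per SCC6 PBS library. CPM here are library-scaled counts (TMM). They are not corrected for gene length and are compared between libraries, not between genes.

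HLA-B, a classical heavy chain, had a lowest, median and highest PBS level of 9.36, 11.8 and 13.7 CPM in SCC6, 193.2, 217.1 and 298.4 CPM in SCC1 and 304.8, 340.2 and 421.3 CPM in SCC25. HLA-C, the other classical chain, had 23.2, 28.0 and 31.6 CPM in SCC6, 298.1, 335.1 and 385.7 CPM in SCC1 and 509.4, 552.0 and 681.4 CPM in SCC25. The ranges of the lines did not overlap for either gene, with SCC6 lowest, SCC1 next and SCC25 highest. B2M, the light chain that every class I molecule needs, had 293.6, 490.5 and 623.5 CPM in SCC6, 756.4, 927.0 and 1325 CPM in SCC1 and 790.9, 867.1 and 1023 CPM in SCC25. SCC6 again lay apart from the other lines, but by far less than for the heavy chains, and SCC1 and SCC25 overlapped.

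Among the processing genes, TAP1 had 12.8, 13.8 and 19.5 CPM (lowest, median and highest) in SCC6, 59.0, 92.6 and 131.7 CPM in SCC1 and 55.9, 60.4 and 83.2 CPM in SCC25. TAP2, its partner, had 95.0, 108.7 and 121.3 CPM in SCC6, 155.8, 185.9 and 205.0 CPM in SCC1 and 124.3, 129.3 and 131.3 CPM in SCC25. TAP2 was thus the member whose levels lay closest together across the lines, and TAP1 lay well apart in SCC6. PSMB9 had 0.0936, 0.278 and 1.54 CPM in SCC6, 26.0, 30.2 and 42.3 CPM in SCC1 and 25.8, 28.8 and 36.8 CPM in SCC25. In SCC6, PSMB8 ranged from 6.24 to 16.0 CPM, TAPBP from 63.3 to 84.9 CPM and HLA-E from 84.8 to 110.6 CPM, each below the lowest library of the other lines. In SCC1 and SCC25 the ranges overlapped for PSMB8, PSMB9, TAPBP and TAP1, and not for HLA-E or TAP2.

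All 9 members were called between SCC6 and SCC25 (72.1% of all 19746 genes tested were called) and all 9 between SCC1 and SCC6 (69.1% of genes), by edgeR's quasi-likelihood F test with p-values adjusted over all genes (Benjamini-Hochberg). PSMB9 is counted among these, but it passed the filter on low counts through the SCC1 and SCC25 libraries. Its calls against SCC6 are therefore values only. Between SCC1 and SCC25, 5 of the 9 were called (69.0% of genes). In log2 CPM, SCC6 minus SCC25 was -4.90 ± 0.14 (SE) for HLA-B, -4.34 ± 0.10 for HLA-C, -1.58 ± 0.09 for HLA-E, -0.90 ± 0.17 for B2M, -2.09 ± 0.16 for TAP1, -0.24 ± 0.07 for TAP2, -1.59 ± 0.10 for TAPBP, -2.16 ± 0.19 for PSMB8 and -5.72 ± 0.39 for PSMB9. The largest adjusted p among these was 0.0044, for TAP2. SCC1 was below SCC25 for HLA-B (-0.60 ± 0.11), HLA-C (-0.74 ± 0.09) and HLA-E (-0.49 ± 0.09) and above it for TAP1 (0.57 ± 0.15) and TAP2 (0.53 ± 0.07), with a largest adjusted p of 0.0023. The differences for B2M (95% interval -0.18 to 0.47), TAPBP (-0.11 to 0.26), PSMB8 (-0.24 to 0.46) and PSMB9 (-0.48 to 0.64) did not pass the test, so no order of SCC1 and SCC25 is given for them.

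Levels of HLA genes between lines carry a further limit, since lines differ in HLA alleles and reads were matched to reference transcripts. Of the 31-base words of the members' main transcripts, 15.5% in HLA-B, 19.6% in HLA-C and 12.0% in HLA-E also occur in transcripts of other genes, as do 35.5% in TAP2, where a read-through gene (ENSG00000250264) overlaps on the same strand. The share was 13.9% in TAPBP, 1.9% in TAP1 and 0.0% in B2M, PSMB8 and PSMB9.

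**Figure D1:**
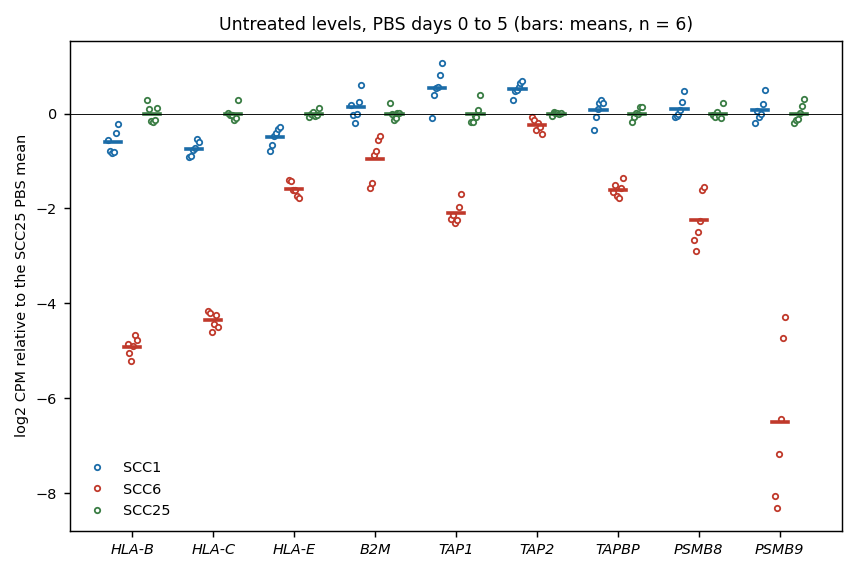
Untreated levels of the 9 genes, as log2 CPM minus the mean of the SCC25 PBS libraries of that gene. Each circle is a PBS library of days 0 to 5 (6 per line) and each bar the line's mean; the SCC6 libraries lie lowest throughout, furthest down for HLA-B, HLA-C and PSMB9, and the 6 SCC6 values of PSMB9 are widely spread.

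In SCC1, the comparison of 5 cetuximab with 5 PBS libraries of days 1 to 5 asked which members respond to EGFR blockade. HLA-B was 1.48-fold higher with cetuximab, TAP1 1.43-fold, HLA-C 1.33-fold, HLA-E and PSMB9 1.29-fold, TAPBP 1.28-fold and PSMB8 1.23-fold. These 7 of 9 members were called, all higher, where 22.7% of the 17984 genes tested were called higher and 22.1% lower. The median log2 fold change was 0.37 over the 9 members and 0.02 over all genes.

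With PBS on days 1 to 5, HLA-B had 199.2, 193.2, 198.0, 259.9 and 298.4 CPM in SCC1, and with cetuximab 212.5, 251.9, 354.2, 398.7 and 467.0 CPM. The cetuximab library was the higher one on each day, by least on day 1, and the groups overlapped. The log2 fold change was 0.56 ± 0.20 (SE, adjusted p = 0.036, edgeR). TAP1, the transporter subunit, had 82.4, 92.0, 93.3, 111.2 and 131.7 CPM with PBS and 101.0, 137.2, 155.3, 157.5 and 173.8 CPM with cetuximab on the same days. Its log2 fold change was 0.52 ± 0.15 (adjusted p = 0.013), and PBS of day 5 reached above cetuximab of day 1. PSMB9, the immunoproteasome subunit next to TAP1, had 30.99, 28.4, 29.4, 34.2 and 42.3 CPM with PBS and stayed between 40.6 and 43.6 CPM with cetuximab. Here PBS of day 5 lay inside the cetuximab range, and the log2 fold change was 0.37 ± 0.09 (adjusted p = 0.0069).

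The other called members of SCC1 were HLA-C (0.41 ± 0.14, adjusted p = 0.032), HLA-E (0.37 ± 0.13, 0.037), TAPBP (0.36 ± 0.10, 0.014) and PSMB8 (0.30 ± 0.10, 0.032) on the log2 scale, by the same edgeR test. Each was higher with cetuximab on 5 of 5 days. B2M was also higher on 5 of 5 days, with 858.4, 756.4, 869.1, 1033 and 1325 CPM with PBS and 932.9, 1091, 1284, 1550 and 1594 CPM with cetuximab, and did not pass the test (0.43 ± 0.17, adjusted p = 0.056). With day as a block in the fit, since labels pair the treatments by day, B2M passed (0.41, adjusted p = 0.0027, edgeR). TAP2 stood apart from its partner subunit: it was lower with cetuximab on 5 of 5 days, by 0.02 to 0.20 log2 units, and did not pass the test (-0.08 ± 0.08, adjusted p = 0.42).

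With flow cell as a covariate, none of the 9 members was called in SCC1 and the log2 fold changes ran from -0.03 for B2M to 0.31 for HLA-C, against 4099 genes called in that edgeR fit. On day 5, when the PBS and cetuximab libraries shared a flow cell, the log2 ratio was 0.77 for HLA-C, 0.65 for HLA-B, 0.58 for HLA-E, 0.42 for TAPBP, 0.40 for TAP1, 0.27 for B2M, 0.18 for PSMB8, 0.04 for PSMB9 and -0.04 for TAP2. Leaving out any of PBS days 1, 2 or 3 or cetuximab days 3, 4 or 5 left 3 or 4 members called. Over all 10 fits with a library left out, 7083 to 8328 genes were called. Without cetuximab of day 5, the log2 fold change was 0.25 for HLA-C and 0.24 for HLA-E, neither called (adjusted p = 0.072 and 0.10, edgeR).

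**Figure D2:**
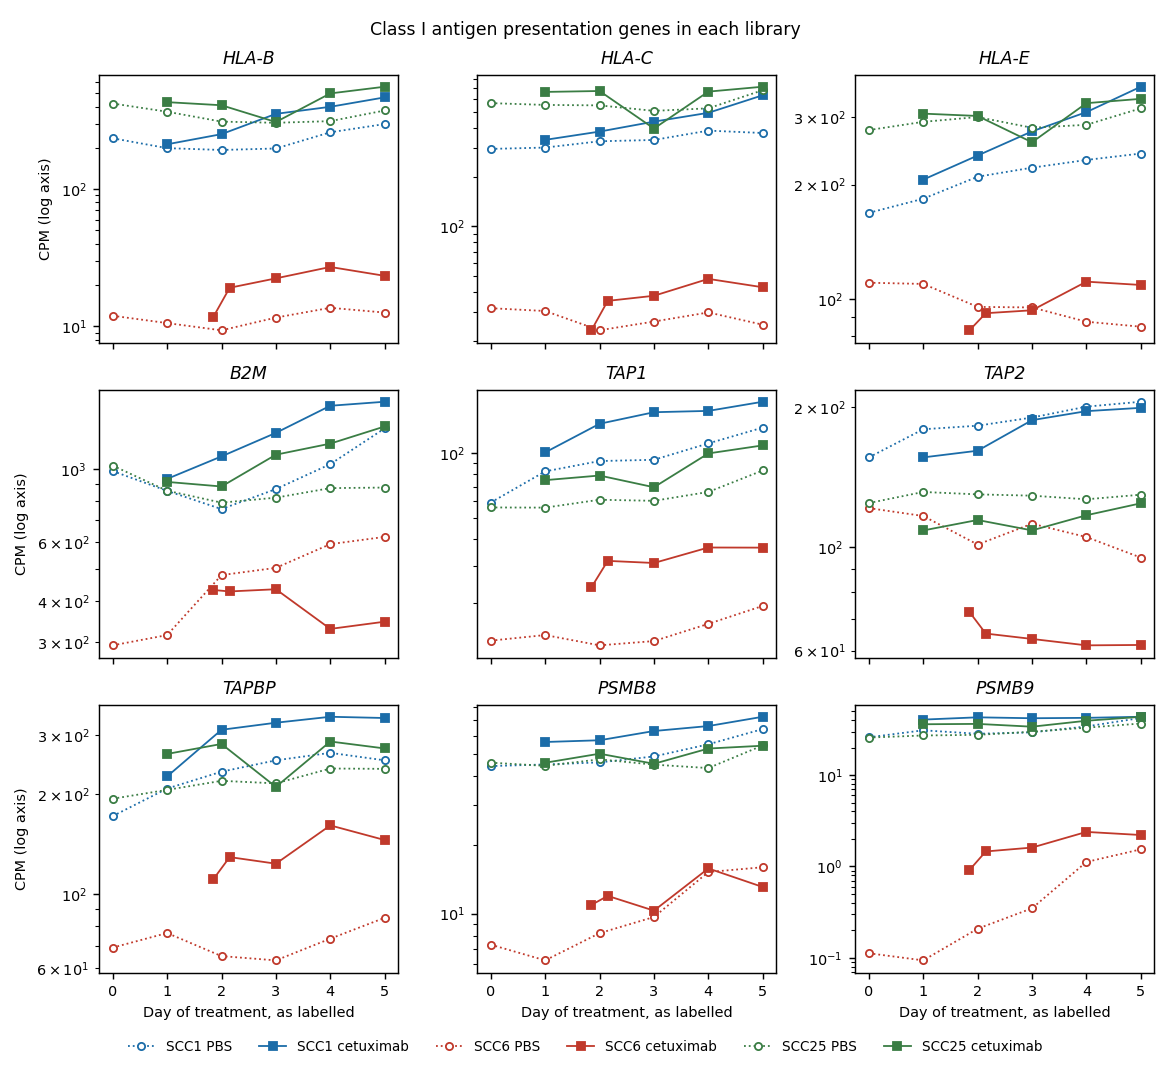
CPM of each member in all 33 libraries against the labelled day, on log axes that differ between panels. Open circles with dotted lines are PBS, filled squares with solid lines cetuximab, and the SCC6 libraries labelled day 2 are drawn side by side (2a left); SCC6 lies lowest in most panels, its TAP1 and TAPBP squares lie above its circles, and its TAP2 squares below.

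In SCC6, members moved in both directions with cetuximab. TAP1 was 2.07-fold, TAPBP 1.82-fold and HLA-B 1.77-fold higher with cetuximab, whereas TAP2 was 1.65-fold lower. Thus 3 of 9 members were called higher and 1 lower, where 15.6% of the 17387 genes tested were called higher and 14.6% lower. The median log2 fold change was 0.45 over the members and 0.0 over all genes.

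TAP1 had 14.3, 12.8, 13.4, 16.1 and 19.5 CPM with PBS on days 1 to 5 and 23.8, 31.6, 30.9, 36.4 and 36.4 CPM in the cetuximab libraries 2a, 2b and days 3 to 5. Every cetuximab library lay above every PBS library, and the log2 fold change was 1.05 ± 0.15 (adjusted p = 0.00037, edgeR). TAP2 had 116.6, 101.3, 112.3, 105.1 and 95.0 CPM with PBS and 72.6, 65.3, 63.6, 61.6 and 61.7 CPM with cetuximab. The groups again did not overlap, in the opposite direction, with a log2 fold change of -0.73 ± 0.09 (adjusted p = 0.00015). TAPBP had 76.4, 65.2, 63.3, 73.5 and 84.9 CPM with PBS and 110.8, 129.2, 123.4, 160.8 and 145.3 CPM with cetuximab, also without overlap (0.86 ± 0.12, adjusted p = 0.0003). The subunits of the TAP heterodimer therefore changed in opposite directions in the same 10 libraries. For TAP2 the share of words found in other genes (35.5%), given above, applies here as well. The part of these shared words in the TAP2 change was not tested.

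HLA-B in SCC6 had 10.6, 9.36, 11.6, 13.7 and 12.6 CPM with PBS and 11.7, 19.1, 22.4, 27.1 and 23.4 CPM with cetuximab (log2 fold change 0.83 ± 0.20, adjusted p = 0.0084, edgeR). Library 2a lay inside the PBS range and the other cetuximab libraries above it. Even the highest cetuximab level of HLA-B in SCC6 was below the lowest of any SCC1 or SCC25 library. HLA-C ranged from 23.2 to 30.4 CPM with PBS and from 23.2 to 47.8 CPM with cetuximab, and its log2 fold change of 0.45 ± 0.17 did not pass (adjusted p = 0.061). HLA-E ranged from 84.8 to 109.8 CPM with PBS and from 83.0 to 111.3 CPM with cetuximab (0.03 ± 0.11, adjusted p = 0.86).

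B2M moved the other way in SCC6, with 315.3, 478.2, 502.9, 593.0 and 623.5 CPM with PBS and 431.2, 426.9, 433.5, 329.1 and 346.0 CPM with cetuximab. The groups overlapped through PBS of day 1, the log2 fold change was -0.37 ± 0.17 and it did not pass (adjusted p = 0.11, edgeR). PSMB9 had 0.0936, 0.208, 0.348, 1.12 and 1.54 CPM with PBS and 0.914, 1.46, 1.61, 2.39 and 2.21 CPM with cetuximab. These are the lowest member values in the series, from 3 to 42 counts per PBS library, and the gene passed the filter on low counts through the libraries with more counts, so its SCC6 calls in any fit are given as values only. The groups overlapped, and 1.37 ± 0.55 did not pass (adjusted p = 0.082). PSMB8 ranged from 6.24 to 16.0 CPM with PBS and from 10.3 to 15.8 CPM with cetuximab (0.15 ± 0.24, adjusted p = 0.67).

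With day as a block and the labels taken as they stand, 7 members were called in SCC6 (40.4% of genes), adding HLA-C (0.55, adjusted p = 0.012), B2M (-0.50, adjusted p = 0.014) and PSMB9 (1.40, adjusted p = 0.0098) by edgeR. With 2a or 2b taken as day 1, HLA-C and B2M were not called. PSMB9 alone was added there, under the limit just given. With flow cell as a covariate the 4 calls were kept and B2M was added (-0.36, adjusted p = 0.014), where 25.9% of genes were called. Without both libraries labelled day 2, an alternative chosen after seeing the data, 5 members were called (35.8% of genes), the same 4 and HLA-C (0.64, adjusted p = 0.0036).

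In SCC25 the changes were smaller. B2M was 1.28-fold higher and TAP2 1.13-fold lower with cetuximab, so 1 of 9 members was called higher, where 8.8% of the 19101 genes tested were, and 1 lower, where 9.5% were. The median log2 fold change was 0.23 over the members and 0.01 over all genes.

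B2M had 859.3, 790.9, 818.8, 874.9 and 878.3 CPM with PBS on days 1 to 5 and 913.6, 884.9, 1104, 1192 and 1343 CPM with cetuximab. The groups did not overlap and the gap was wider on days 3 to 5 (log2 fold change 0.36 ± 0.10, adjusted p = 0.028, edgeR). TAP2 had 131.3, 129.8, 129.0, 126.7 and 129.6 CPM with PBS and 108.6, 114.4, 108.6, 117.1 and 124.2 CPM with cetuximab, again without overlap (-0.18 ± 0.05, adjusted p = 0.024). TAP1 had 55.9, 60.8, 60.1, 66.1 and 83.2 CPM with PBS and 75.0, 78.8, 69.5, 99.8 and 108.8 CPM with cetuximab. It was higher on 5 of 5 days, as were HLA-B and PSMB9, but the groups overlapped.

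In the SCC25 test without a block, TAP1 (0.40 ± 0.14, adjusted p = 0.061), HLA-B (0.40 ± 0.13, 0.056), PSMB9 (0.29 ± 0.10, 0.055) and TAPBP (0.23 ± 0.08, 0.069) missed the threshold in edgeR's adjusted p. With day as a block these 4 passed (adjusted p = 0.0016, 0.013, 0.0052 and 0.022), which made 6 members called, where 24.2% of genes were called. HLA-C (0.14 ± 0.14), HLA-E (0.04 ± 0.07) and PSMB8 (0.08 ± 0.08) did not pass in either fit. HLA-C in SCC25 was lower with cetuximab only on day 3, at 397.1 against 509.4 CPM, and higher on the other 4 days.

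With flow cell as a covariate no SCC25 member was called, B2M at 0.09 (adjusted p = 0.50, edgeR) and TAP2 at -0.21 (adjusted p = 0.064). On days 1 and 2, when both treatments shared a flow cell, the log2 ratios were 0.09 and 0.16 for B2M and -0.27 and -0.18 for TAP2. The number of SCC25 members called ran from 0, without PBS of day 2 or of day 3, to 7, without cetuximab of day 3. Without PBS of day 2 or of day 3, 2204 and 2278 genes were called, and 2193 to 4006 over all 10 such fits.

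**Figure D3:**
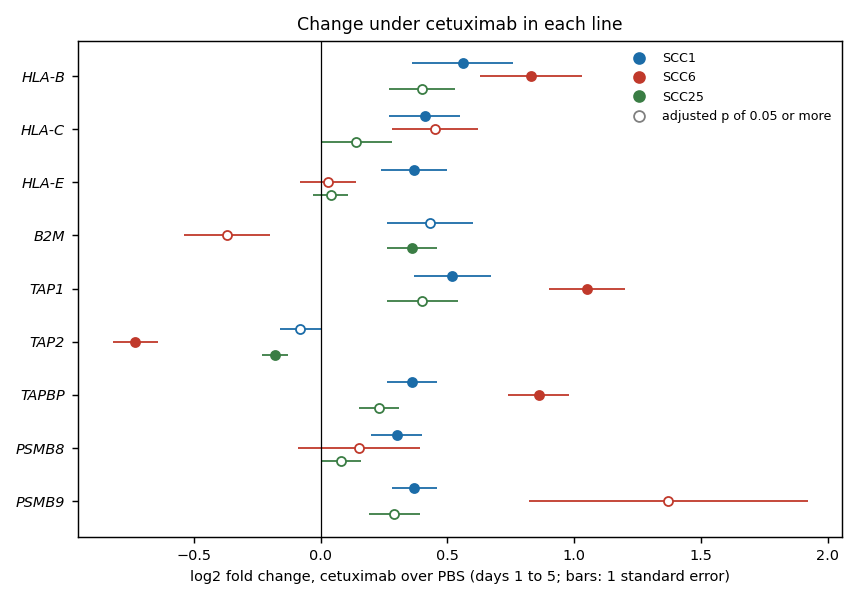
Log2 fold change of each member under cetuximab in each line, with bars of 1 standard error from edgeR over 5 against 5 libraries. Filled points passed an adjusted p of 0.05; the SCC6 points of TAP1 (1.05) and TAPBP (0.86) lie furthest right of the filled ones and TAP2 (-0.73) furthest left.

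Whether lines differed in the change itself was asked of the line-by-treatment terms in a fit of all 30 libraries of days 1 to 5. B2M (adjusted p = 0.018), TAP1 (0.047), TAP2 (2.7e-05) and TAPBP (0.0043) differed among the lines in edgeR's adjusted p, 4 of 9 members against 26.1% of the 21414 genes tested. HLA-B, HLA-C, HLA-E, PSMB8 and PSMB9 did not pass.

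The differences lay between SCC6 and the other lines. Against SCC25, 4 members were called (17.5% of genes): the change in SCC6 was lower by 0.72 ± 0.23 log2 units for B2M and lower by 0.53 ± 0.10 for TAP2, and it was higher by 0.66 ± 0.22 for TAP1 and by 0.64 ± 0.15 for TAPBP. Against SCC6, the change in SCC1 was higher by 0.77 ± 0.23 for B2M and by 0.62 ± 0.10 for TAP2, and differed by -0.53 ± 0.15 for TAPBP, 3 members called (19.3% of genes). TAP1 missed the threshold there (-0.56 ± 0.22, adjusted p = 0.074, edgeR). With line and day as a block, 5 members were called between SCC1 and SCC6 (26.6% of genes). Between SCC1 and SCC25 edgeR called 0 members (8.52% of genes), DESeq2 0 (2275 genes), and 0 members had an unadjusted p under 0.05 (4334 genes). The 95% intervals of that difference were widest for PSMB9 (-0.58 to 0.71) and narrowest for TAP2 (-0.11 to 0.28), so differences within those limits are not excluded. With flow cell as a covariate only TAP2 was called among the members in the joint test (12.2% of genes).

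Levels also moved over the labelled days with PBS, and in SCC6 and SCC1 flow cell changed along with day. In SCC6 with PBS, PSMB9 rose over days 0 to 5 by 0.89 ± 0.12 log2 units per day (adjusted p = 0.0015, edgeR), PSMB8 by 0.26 ± 0.05 (0.0049) and B2M by 0.22 ± 0.03 (0.0016), while HLA-E changed by -0.10 ± 0.02 per day (0.014). That is 3 members rising, where 13.9% of genes rose, and 1 falling, where 18.8% fell. The 3 include PSMB9, whose low SCC6 counts carry the limit given above. Its call here, and with flow cell as a covariate, is therefore a value only. PSMB9 went from 0.112 CPM on day 0 to 1.54 CPM on day 5 and PSMB8 from 7.31 to 16.0 CPM. When flow cell was a covariate, an alternative added after seeing the data, 2 of the 4 calls were kept (3.47% of genes), B2M (0.14 per day, adjusted p = 0.048) and PSMB9 (0.96, 0.03), while PSMB8 (0.30, 0.063) and HLA-E (-0.06, 0.39) missed the threshold in edgeR.

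In SCC1 with PBS, TAP1 rose by 0.20 ± 0.03 per day (adjusted p = 0.016, edgeR) and HLA-E by 0.10 ± 0.02 (0.036), 2 members against 1.71% of genes rising and 0.777% falling. In SCC25, TAP1 (0.11 ± 0.02 per day, adjusted p = 0.0097), PSMB9 (0.10 ± 0.02, 0.0052) and TAPBP (0.06 ± 0.02, 0.03) rose, 3 members against 7.08% of genes rising and 3.64% falling. TAP1 was thus higher on day 5 than on day 0 without any drug in every line, at 131.7 against 59.0 CPM in SCC1, 83.2 against 56.0 in SCC25 and 19.5 against 13.4 in SCC6, where the slope did not pass (0.08 ± 0.04, adjusted p = 0.14). In SCC1 the 2 calls were lost without PBS of day 0, 1 or 4 (99, 24 and 51 genes called), and flow cell as a covariate gave 4 (8.11% of genes). All SCC25 PBS libraries shared a flow cell. Without PBS of day 5, the SCC25 slope of TAP1 was 0.06 and not called (adjusted p = 0.15, edgeR).

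The treatment-by-day term asked whether the effect of cetuximab grew or shrank. In SCC6 the slope with cetuximab minus that with PBS was -0.34 ± 0.06 per day for B2M (adjusted p = 0.0078, edgeR), -0.68 ± 0.18 for PSMB9 (0.023) and 0.22 ± 0.05 for HLA-E (0.014), 3 members called against 25.5% of genes. PSMB9 is counted among these under the limit on its low SCC6 counts, so its call is a value only. A fit with flow cell as a covariate, added after seeing the data, called 0 members and 0 genes for this term in SCC6 by edgeR, with 2 members and 1584 genes at an unadjusted p under 0.05, and the slope differences were -0.11 for B2M, -0.85 for PSMB9 and 0.10 for HLA-E. B2M was lowest with cetuximab on days 4 and 5, the libraries on a flow cell of their own, where the log2 ratio of cetuximab to PBS reached -0.85 at its lowest. HLA-E went from below PBS in the libraries labelled day 2 to 111.3 against 87.4 CPM on day 4 and 109.1 against 84.8 CPM on day 5, again across flow cells. These slopes also rest on day labels of which a pair repeats: with 2a taken as day 1, 5 members were called (28.6% of genes).

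In SCC1 edgeR called 0 members for this term (0.524% of genes), with 3 members and 2352 genes at an unadjusted p under 0.05. DESeq2 called 2 members and 421 genes there. The ratio of HLA-C widened from 0.16 log2 units on day 1 to 0.77 on day 5 and that of HLA-E from 0.17 to 0.58, with slope differences of 0.15 ± 0.03 (adjusted p = 0.083) and 0.12 ± 0.03 (adjusted p = 0.097). In SCC25 edgeR called 0 members and 0 genes (0.0% of genes), with 1 member and 1275 genes at an unadjusted p under 0.05. DESeq2 called 0 members and 29 genes there.

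The balance of immunoproteasome and constitutive subunits was followed as the log2 ratio of CPM within a library, in which gene length cancels between groups. PSMB9 over PSMB6 in SCC1 was -1.88 ± 0.25 (SD, n = 5) with PBS and -1.37 ± 0.08 with cetuximab, and in SCC25 it was -2.46 ± 0.19 and -1.94 ± 0.18. The shifts of 0.51 and 0.52 passed the two-sided exact permutation test, each with p = 0.0079, the smallest that 5 against 5 libraries allow (adjusted p = 0.016 over the 6 ratio tests). PSMB8 over PSMB5 shifted by 0.30 in SCC25 (exact p = 0.0079, adjusted p = 0.016) and by 0.37 in SCC1 (exact p = 0.032, adjusted p = 0.048). In SCC6 the ratios were far lower, -7.57 ± 1.96 with PBS and -5.57 ± 0.42 with cetuximab for PSMB9 over PSMB6 (exact p = 0.063, adjusted p = 0.076) and -4.12 ± 0.79 and -3.63 ± 0.11 for PSMB8 over PSMB5 (exact p = 0.17, adjusted p = 0.17). The SCC1 and SCC25 comparisons share the flow cell limit given above. The shifts also hold changes of the denominators. PSMB5 fell by 0.22 log2 units and PSMB6 by 0.23 in SCC25 (adjusted p = 0.0096 and 0.0071, edgeR), and PSMB6 fell by 0.13 in SCC1 (adjusted p = 0.043). In SCC25 neither numerator was called, with PSMB8 at 0.08 ± 0.08 (adjusted p = 0.53, edgeR) and PSMB9 at 0.29 ± 0.10 (0.055). Both numerators were called higher in SCC1.

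**Figure D4:**
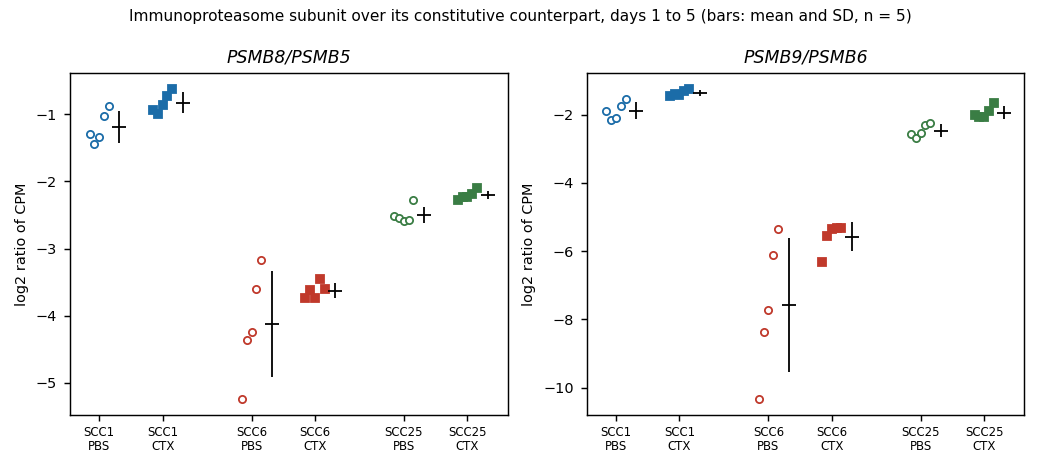
Log2 ratio of PSMB8 to PSMB5 and of PSMB9 to PSMB6 in each library of days 1 to 5, by line and treatment (CTX is cetuximab), with the mean and SD of 5 libraries in black. In SCC1 and SCC25 the cetuximab means lie above the PBS means, and the SCC6 PBS libraries spread over the widest range.

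Genes around the pathway were counted from lists chosen with earlier results known. Their counts stand beside 44.8% of all genes called in SCC1, 30.1% in SCC6 and 18.3% in SCC25, in either direction. Among 6 tested other class I and class I-like genes, 3 rose and 1 fell in SCC1, 6 rose in SCC6 and 2 rose in SCC25. HLA-F, a non-classical heavy chain, rose by 0.87 log2 units in SCC1 (adjusted p = 0.0059, edgeR) and 0.71 in SCC6 (0.019). MR1, which presents vitamin B metabolites to MAIT cells, rose in all 3 lines (0.60, 0.48 and 0.56 in SCC1, SCC6 and SCC25), as did HFE, a class I-like regulator of iron uptake (0.76, 0.61 and 0.35). MICB, a ligand of the receptor NKG2D, fell by 0.44 in SCC1 and rose by 0.45 in SCC6.

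Among 6 loading and trimming genes, 2 rose in SCC1, 2 in SCC6 and 1 in SCC25. TAPBPL, a peptide editor related to tapasin, rose by 0.95 in SCC1 and 0.71 in SCC6, and the trimming peptidase ERAP1 by 0.29 and 0.56. Its relative ERAP2 rose in SCC25, by 0.34. Among 8 proteasome partners, 2 rose and 4 fell in SCC1, 3 fell in SCC6 and 3 fell in SCC25. PSMB10, the remaining immunoproteasome catalytic subunit, and PSME1, a subunit of the PA28 activator, rose in SCC1 (0.70 and 0.50), whereas the constitutive subunit PSMB7 fell in all 3 lines (-0.32, -0.41 and -0.18 in SCC1, SCC6 and SCC25).

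Of 18 regulators, 5 rose and 3 fell in SCC1, 5 rose and 2 fell in SCC6, and 1 rose and 1 fell in SCC25. IRF1, an activator of many class I pathway genes, rose by 0.60 in SCC1 (adjusted p = 6.3e-05, edgeR) and 0.61 in SCC6 (0.014). STAT2, which carries type I interferon signals, rose in SCC1 and SCC6 (0.84 and 0.53), as did the kinase JAK1 (0.17 and 0.44). NLRC5, the transactivator of class I genes, rose in SCC1 (0.66, adjusted p = 0.045) and fell in SCC6 (-0.44, adjusted p = 0.048). The interferon-gamma receptor chain IFNGR1 rose in SCC1 (0.53), where the NF-kappa-B subunits NFKB1 (-0.33) and RELA (-0.24) fell. IRF9, the partner of STAT2, and the type I receptor chain IFNAR2 rose in SCC6 (1.27 and 0.41), and RFX5, a subunit of the RFX complex on MHC promoters, rose in SCC25 (0.18). IFNGR2, the other interferon-gamma receptor chain, fell in all 3 lines (-0.58, -0.49 and -0.30). Of the interferon-stimulated genes, 3 of 20 rose in SCC1, 8 of 18 in SCC6 and 2 of 20 in SCC25, beside 22.7%, 15.6% and 8.8% of all genes, none fell, and the GTPases GBP1 and GBP2 were among those that rose in every line. GBP1 rose by 3.20 log2 units in SCC6. Class II genes were sparse: their summed level was at most 14.9 CPM in any library, and 1 of 5 tested rose in SCC1, 0 of 2 in SCC6 and 1 of 4 in SCC25 by edgeR.

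**Figure D5:**
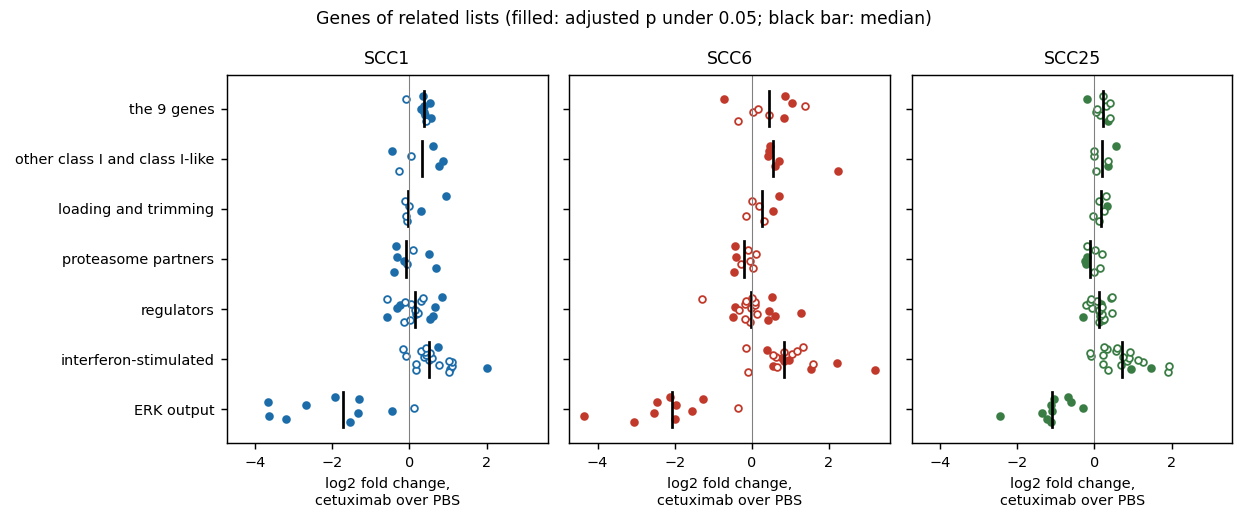
Log2 fold change under cetuximab of the 9 genes and of related lists in each line. Each point is a gene, filled where its adjusted p was under 0.05, and the black bar is the list's median; the ERK output genes lie to the left (medians -1.73, -2.06 and -1.10 in SCC1, SCC6 and SCC25) and the medians of the 9 genes lie between 0.23 and 0.45.

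The members were also followed as a set over all 33 libraries, after each gene was centred within its line. The libraries share treatment and day, so these correlations describe the table and have no test. Pearson's r of a member with the mean of the other 8 was 0.90 for TAP1, 0.88 for HLA-B, 0.82 for TAPBP, 0.78 for HLA-C and PSMB8, 0.73 for PSMB9, 0.59 for HLA-E, 0.39 for B2M and -0.48 for TAP2. TAP2 was the sole negative member over all libraries, at 0.53 in SCC1, -0.89 in SCC6 and -0.27 in SCC25 (11 libraries each). B2M followed the others in SCC1 (0.89) and not in SCC6 (-0.12), and the same held for HLA-E (0.96 and -0.05).

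Among 10070 other genes compared, the 10 most like the mean of the members over the 33 libraries were SLC39A11 (r = 0.92), UBE2L6 and HLA-F (0.91), CTSH and BST2 (0.90), and ERMAP, TRANK1, EPAS1, PARP14 and PSAP (0.89). UBE2L6, BST2 and PARP14 are known interferon-stimulated genes, CTSH is a lysosomal protease and PSAP a precursor of lysosomal saposins. Within a line the closest genes differed, led by ZNFX1 in SCC1 (r = 0.99), HIST1H2BD in SCC6 (0.98) and TMEM140 in SCC25 (0.96), over 11 libraries each.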

How the data were processed

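Poly(A) RNA of each culture was sequenced with a stranded kit. Transcript levels were estimated with Salmon (0.8.2 per the submitters' processing notes, which name hg19 and GRCh37) and imported with tximport by the authors, who deposited estimated counts per gene symbol, not normalised between libraries. Of these values 63.2% were whole numbers at a tolerance of 0. The annotation behind the symbols is not given in the sources used here.

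Counts were rounded, filtered with filterByExpr, scaled by TMM and tested with edgeR 4.0.16 in R 4.3.3 (quasi-likelihood F test, all genes adjusted together by Benjamini-Hochberg, called at an adjusted p under 0.05). All tests are two-sided. CPM use the TMM factors. The 95% intervals are the estimate and its normal-scale standard error. Depth ran from 28508758 to 80727478 counts per library, and counting error is largest for PSMB9 in SCC6. Libraries were grouped by line and treatment from the labels, and no pair of libraries of a group agreed within sampling noise. Fits were tested on simulated data.

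Treatments are paired by the labelled day. After treatment means were removed, same-day libraries correlated across genes at 0.13 to 0.40 in SCC1 and 0.24 to 0.60 in SCC25, and at -0.20 to 0.60 in SCC6. DESeq2 1.42.0, other scalings, no filter, day as a block, flow cell as a covariate, PBS of day 0 and each library left out were alternatives. Ratios were tested by exact permutation of 252 splits. Word sharing used GENCODE 44 transcripts and words of 31 bases. Likeness used log2(CPM + 0.5) centred within lines, over genes whose mean log2 CPM reached 3. Promoter motifs were searched 250 bases before the RefSeq start.

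All 9 members were to be named and the 10 genes of highest likeness. Called list genes could be named, up to 8 per list and comparison by smallest p, and none of these lists but ERK output had more. All called regulators are named, and the examples from other lists were picked after their values were seen. PTPRC, CD2, CD68, ITGAX, CD14, CDH1, EPCAM and KRT5 were named from the marker lists after their values were seen. The members and lists were chosen with earlier results of these data known.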

Additional observations from a re-analysis of the deposited data

Results flagged for a closer look

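In 5 of 54 groups of 5 or 6 libraries, a member had a library standing far from the rest of its group, where chance gives about 1 group in 20. In SCC25, PBS of day 5 was the highest PBS library for HLA-C (681.4 CPM), TAP1 (83.2 CPM) and PSMB8 (54.4 CPM), and cetuximab of day 3 was the lowest cetuximab library for HLA-C (397.1 CPM). In SCC1, cetuximab of day 1 was the lowest cetuximab library for TAPBP (225.5 CPM). Without PBS of day 5, 5 SCC25 members were called in place of 2, and without cetuximab of day 3, 7 were. All-gene counts also moved when a library was left out, from 2193 to 4006 over the 10 SCC25 fits.

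The change under cetuximab differed between lines, by edgeR's line-by-treatment test, for B2M (adjusted p = 0.018), TAP1 (adjusted p = 0.047), TAP2 (adjusted p = 2.7e-05) and TAPBP (adjusted p = 0.0043). For B2M the SCC6 change was negative and the SCC1 and SCC25 changes positive, for TAP2 all 3 were negative and the SCC6 one lowest, and for TAP1 and TAPBP all 3 were positive and the SCC6 one highest. With flow cell as a covariate, TAP2 alone among the members was called.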

How the results depend on the processing

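Counts of members called, by edgeR unless named, were compared with 7 (SCC1), 4 (SCC6) and 2 (SCC25) for the treatment. Requiring a log2 fold change of 1 or more in size left 0, 1 and 0, and 0 for the line-by-treatment difference of SCC6 from SCC25, of SCC1 from SCC6 and for untreated SCC1 against SCC25. Flow cell as a covariate gave 0 in SCC1 and 0 in SCC25, 1 for SCC6 against SCC25, 0 for SCC1 against SCC6 and 1 for the joint test. With it B2M (-0.03) and PSMB8 (-0.01) turned in SCC1, as did HLA-E (-0.03) and PSMB8 (-0.16) in SCC6, and HLA-E also with PBS of day 0 added (-0.01), all uncalled. The day block gave 7 in SCC6, 6 in SCC25 and 5 for SCC1 against SCC6, and changed no other count by over 1.5 times. In SCC25, DESeq2 gave 6 (4267 genes called), total counts only 5 (3478) and PBS of day 0 added 5 (3517). In SCC1, DESeq2 gave 7 for the PBS slope (1468 genes called) and 2 for the slope difference (421), and no filter gave 1 for the latter (250). In SCC6, 2a as day 1 gave 5 for the slope difference. Flow cell as a covariate in the fits over days, added after seeing the data, gave 4 members for the SCC1 and 2 for the SCC6 PBS slope, and 0 in place of 3 for the SCC6 slope difference.

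Leaving out each library gave 3 to 8 members in SCC1, 4 to 6 in SCC6 and 0 to 7 in SCC25, 2 to 5 for SCC6 against SCC25, 3 to 5 for SCC1 against SCC6 and 3 to 5 for the joint test, 0 to 3 for the SCC1 and 1 to 3 for the SCC25 PBS slope, and 0 to 1 and 1 to 4 for the SCC1 and SCC6 slope differences. In SCC1, TAP1, TAPBP and PSMB9 kept their call in all 10 of these fits. All genes called for the treatment ran from 7083 to 8328 in SCC1, 3791 to 6614 in SCC6 and 2193 to 4006 in SCC25. In SCC25 1 member was left without PBS of day 1 or cetuximab of day 2, 4 or 5, and 5 without PBS of day 5. For SCC6 against SCC25, 2 were left without SCC6 cetuximab of day 4 or 5. In the joint test, TAP1's adjusted p ranged from 0.015 to 0.10. PSMB8 over PSMB5 in SCC1 ranged from 0.31 to 0.45 and PSMB9 over PSMB6 in SCC6 from 1.31, without PBS of day 1, to 2.55. Uncalled values that turned were HLA-E (-0.02 to 0.09) and PSMB8 (0.00 to 0.31) in SCC6 and PSMB9 in untreated SCC1 against SCC25 (-0.01 to 0.14).

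All-gene counts that moved by over 1.5 times were, for the treatment (8061, 5238 and 3496 called in SCC1, SCC6 and SCC25), 1572, 1687 and 300 at a log2 fold change of 1 or more, 4099 in SCC1 and 1364 in SCC25 with flow cell, and 8226 in SCC6 with the day block. For the line-by-treatment terms (5586 jointly, 1824 for SCC1 and 3750 for SCC6 against SCC25, 4128 for SCC1 against SCC6) they were 917, 1488 and 1769 for the pairs at that fold change, 2979, 884, 1721 and 2263 with flow cell and 8755, 2835, 7039 and 6493 with the block. Untreated levels (13624, 14234 and 13654) gave 6292, 6979 and 6607 at that fold change. DESeq2 gave 1468 for 474 in the SCC1 PBS slope and 421 for 103 in its slope difference (250 with no filter), and 29 for 0 in SCC25 (12 with no filter), and 2b as day 1 gave 2985 for 4886 in SCC6. Flow cell gave 1657 and 617 (for 5812) in the SCC1 and SCC6 PBS slopes and 302 and 0 in their slope differences. Leaving out each library gave 2193 (cetuximab of day 4) to 4006 for the treatment in SCC25, with 2204, 2278 and 2221 without PBS of day 2, PBS of day 3 and cetuximab of day 5. It gave 24 (PBS of day 1) to 1575 (PBS of day 5) for the SCC1, 1892 (PBS of day 0) to 7137 for the SCC6 and 1090 (PBS of day 0) to 2279 for the SCC25 PBS slope, the last with 2147 called. For the slope differences it gave 5 (cetuximab of day 5) to 334 (PBS of day 1) in SCC1, 650 (PBS of day 1) to 5957 in SCC6 and 0 to 150 (cetuximab of day 3) in SCC25. Scaling by total counts alone moved the median of all genes from -0.02 to -0.15 and from 0.01 to 0.22 in untreated SCC6 against SCC25 and SCC1 against SCC6, and the split of higher and lower calls from 1681 and 1815 to 2261 and 1217 in SCC25 with cetuximab. The split of rising and falling calls with PBS moved from 326 and 148 to 224 and 258 in SCC1, from 2465 and 3347 to 3366 and 2816 in SCC6 and from 1418 and 729 to 1196 and 1024 in SCC25. It also moved from 2176 and 1574 to 1847 and 2057 for the line-by-treatment term of SCC6 against SCC25, from 1764 and 2364 to 2252 and 1977 for that of SCC1 against SCC6, from 6867 and 6787 to 8509 and 5350 for untreated SCC1 against SCC6, and from 73 and 30 to 56 and 36 for the SCC1 slope difference. The causes were not tested.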
